A study of Mus musculus with 17 samples.

Results

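The 9 genes described here are B cell lineage genes by name, although Pax5 did not follow the other 8 in these tumors: Ms4a1, Cd79a, Cd79b, Pax5, Fcrla, Blk, Cr2, Fcer2a and Bank1. They were picked by name as established B cell genes, and each was found as 1 row of the count matrix by its Ensembl identifier in Gencode vM21, so they are 9 of 55450 genes. Counts came from 17 bulk tumors, 1 tumor per mouse, in 5 groups. AB12 cells, a mouse mesothelioma line, were placed in the peritoneum of 8-week-old female BALB/c mice at 100000 cells per mouse, and tumors were taken 6, 10 or 14 days later (d6, d10 and d14). Untreated tumors comprised 3 at d6, 5 at d10 and 3 at d14. The treated groups, 3 tumors at d10 and 3 at d14, came from mice given the CTLA-4 blocking antibody clone 9D9 by peritoneal injection at 200 µg per dose. No transgene or gene deletion was used, and all mice kept their own immune cells. The treated d14 tumors followed injections on days 6 and 10, whereas the schedule behind the treated d10 tumors was not given in the sources used here.

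Library totals ranged from 46371577 to 96759833 assigned reads with a median of 72413343, and the untreated d6 libraries, at 46371577 to 52814004, included the shallowest. Keratins and mesothelin, which mark mesothelioma cells, were abundant in all tumors: the group medians of Krt19 lay between 384.8 and 808.5 and those of Msln between 205.2 and 497.3 normalized counts per 1000000 reads (CPM), although Pdpn, another mesothelial marker, had at most 1 count in any tumor. The treated d14 libraries 1 and 3 stood apart by carrying pancreas RNA. Summed over 6 acinar enzyme genes it reached 3199 CPM in replicate 1 and 1085 CPM in replicate 3, against 1.52 CPM in replicate 2 and at most 0.333 CPM in every other tumor. Comparisons of the members and of the related gene lists that rest on treated d14 tumors were therefore also fitted with replicate 2 alone.

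B cells recognize antigen through a membrane immunoglobulin that signals through a pair of partner chains, and they can present antigen to T cells, secrete cytokines or mature into antibody-secreting plasma cells. Plasma cells switch off most B cell identity genes while they keep making immunoglobulin. In tumors B cells may be scattered or gathered in lymphoid aggregates with T cells, follicular stroma and the chemokine Cxcl13. In bulk tumor RNA, fewer B cells and less RNA per B cell cannot be told apart.

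Promoter sequences are shown for members that rose and fell together across tumors (Cd79a, Cr2 and Fcer2a) and for Pax5, which did not follow them. RefSeq promoter windows on GRCm38.p6, the build of the count annotation, were found for 6 of the 9 members, while Ms4a1, Cd79b and Blk were not in that table. Each sequence is the part of the 250 bases before the RefSeq start that holds no annotated exon, reads 5′ to 3′ on the strand of the gene, and has only the motifs named in the next sentences in capitals, while other matches stay in lower case. In Cd79a (chr7:24897247-24897380, plus strand) the capitals mark a site of the B cell factor EBF, CAAGGGA, and the E-box CAGGTG. In Cr2 (chr1:195176720-195176969, minus strand) they mark the same E-box on its other strand, in Fcer2a (chr8:3694176-3694424, minus strand) a TATA box, TATAAA, and in Pax5 (chr4:44710695-44710944, minus strand) a pair of GC boxes, GGGCGG, on either strand.
Cd79a: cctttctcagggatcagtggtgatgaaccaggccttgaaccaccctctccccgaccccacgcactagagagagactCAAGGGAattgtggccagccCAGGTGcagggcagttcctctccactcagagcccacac
Cr2: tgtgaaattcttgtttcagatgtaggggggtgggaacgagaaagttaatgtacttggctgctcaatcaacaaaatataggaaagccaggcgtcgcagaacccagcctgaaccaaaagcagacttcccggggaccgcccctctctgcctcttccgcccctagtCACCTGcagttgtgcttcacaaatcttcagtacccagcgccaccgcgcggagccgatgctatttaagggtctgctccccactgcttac
Fcer2a: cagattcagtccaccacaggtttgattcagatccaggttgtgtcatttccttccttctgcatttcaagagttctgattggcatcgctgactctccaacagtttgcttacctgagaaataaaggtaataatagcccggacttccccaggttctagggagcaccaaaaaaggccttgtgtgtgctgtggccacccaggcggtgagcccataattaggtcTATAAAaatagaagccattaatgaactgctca
Pax5: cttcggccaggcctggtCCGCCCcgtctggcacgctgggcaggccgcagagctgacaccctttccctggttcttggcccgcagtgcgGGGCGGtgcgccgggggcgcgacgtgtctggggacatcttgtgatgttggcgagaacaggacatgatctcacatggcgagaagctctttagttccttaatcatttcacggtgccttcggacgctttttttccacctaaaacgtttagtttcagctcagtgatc

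On either strand of the full 250 bases, 16 letter strings were searched and compared with 32851 promoters of the same table. The E-box CAGGTG occurred in 4 of the 6 member promoters (Cd79a, Bank1, Fcrla and Cr2) and in 17.2% of all promoters. The ETS core GGAAGT also occurred in 4 (Fcer2a, Cd79a, Bank1 and Cr2) against 19.7% of all. GAGGAA, a PU.1-like string, was found in Cd79a and Fcrla (23.3% of all promoters), TATAAA in Fcer2a and Bank1 (12.4%) and GGGCGG in Pax5 and Cr2 (32.7%). The EBF site CAAGGGA was found only in Cd79a among the members (4.21%), as were its longer form CAAGGGAAT (0.225%), the PAX-like string GTGAGGC (4.18%) and AGGAAGTG (3.14%), which contains the ETS core. The EBF palindrome CCCNNGGG occurred in Bank1 (11.8%) and the RUNX-like string TGTGGT in Fcer2a (14.0%). No member window held the octamer ATTTGCAT (1.60%), its core TTTGCAT (4.12%), a longer form of the EBF palindrome (0.779%), GAGGAAGT (2.44%) or an NF-kB consensus (0.140%). These matches describe letters in the windows and were not tested as binding sites.

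Cd79a and Cd79b encode the signaling chains of the B cell receptor. Cd79a had the highest level per exon length of the 9 genes, with a mean of 6.18 RPKM (CPM per kilobase of exon) over the 17 tumors, ahead of Pax5 at 3.99 and Cd79b at 3.84. In untreated tumors Cd79a was at 8.43, 10.6 and 13.6 CPM at d6, at 8.87, 10.2, 3.08, 50.0 and 8.71 CPM at d10, and at 2.60, 0.542 and 8.62 CPM at d14. In treated tumors it was at 0.979, 2.40 and 1.30 CPM at d10 and at 9.71, 7.29 and 6.26 CPM at d14. The d6 tumors were alike, 1 untreated d10 tumor (replicate 4) stood far above the rest, the untreated d14 tumors were scattered, and the treated d10 tumors lay below all untreated d10 tumors and all treated d14 tumors. Cd79b ran from 5.77 to 6.32 CPM at d6, 1.50 to 31.1 CPM in untreated d10, 0.722 to 6.17 CPM in untreated d14, 0.525 to 1.56 CPM in treated d10 and 3.99 to 6.57 CPM in treated d14 tumors, so that its treated d10 tumors were below all treated d14 tumors but overlapped with untreated d10 tumors.

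Blk, a Src family kinase of the B cell receptor pathway, and Bank1, a scaffold of the same pathway, were lower per length, with means of 0.456 and 0.634 RPKM. Bank1 was at 8.05, 9.05 and 8.73 CPM in the untreated d6 tumors, at 4.19, 5.79, 3.05, 15.4 and 3.03 CPM at d10, and at 1.64, 1.10 and 5.85 CPM at d14. Its treated d10 tumors held 0.932, 1.36 and 0.970 CPM and its treated d14 tumors 4.77, 3.71 and 3.05 CPM. Bank1 was the member with the smallest span between tumors apart from Pax5, 16.5-fold from lowest to highest, and all 3 untreated d14 tumors were below all d6 tumors. Blk ranged from 0.667 to 1.09 CPM at d6, 0.228 to 6.39 in untreated d10, 0.142 to 2.11 in untreated d14, 0.130 to 0.365 in treated d10 and 1.21 to 2.07 CPM in treated d14 tumors. In treated d10 tumors Blk rested on 9 to 25 counts.

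Ms4a1 encodes CD20, the B cell surface antigen, and Fcrla is an intracellular Fc receptor-like protein of B cells. Ms4a1 was at 8.28, 10.2 and 8.08 CPM in untreated d6 tumors, at 6.60, 8.38, 3.27, 35.4 and 6.56 CPM at d10, and at 2.22, 0.451 and 10.4 CPM at d14. With anti CTLA-4 it was at 0.717, 1.65 and 1.01 CPM at d10 and at 9.39, 6.74 and 5.56 CPM at d14. As for Cd79a, the treated d10 tumors had the lowest group median. They lay below all untreated d10 tumors, as in 4.59% of all genes, and below all treated d14 tumors, as in 29.1%. In both genes untreated d14 replicate 2 was lower than every treated d10 tumor. Fcrla spanned 3.15 to 3.59 CPM at d6, 0.990 to 10.4 in untreated d10, 0.439 to 2.75 in untreated d14, 0.362 to 0.745 in treated d10 and 2.16 to 3.21 CPM in treated d14 tumors.

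Cr2 encodes the complement receptor CD21 and Fcer2a the low-affinity IgE receptor CD23, surface proteins of mature B cells. Cr2 is also made by follicular dendritic cells. Cr2 was at 0.756, 0.524 and 1.03 CPM in untreated d6 tumors, at 1.42, 2.51, 0.857, 8.25 and 1.52 CPM at d10, and at 0.485, 0.219 and 4.58 CPM at d14, whereas treated tumors held 0.167, 0.321 and 0.261 CPM at d10 and 2.21, 2.20 and 1.39 CPM at d14. Fcer2a was at 0.578, 0.363 and 0.547 CPM in untreated d6 tumors, at 1.24, 1.33, 0.324, 5.65 and 0.984 CPM at d10, and at 0.390, 0.116 and 1.53 CPM at d14. Its treated d10 tumors held 0.0597, 0.102 and 0.116 CPM and its treated d14 tumors 1.61, 1.58 and 1.27 CPM. Fcer2a had the widest span of all members, 94.5-fold from lowest to highest tumor, and its treated d10 values rested on 5, 7 and 8 counts, so that their counting error was large.

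Pax5 encodes the transcription factor that sets B cell identity and represses genes of other lineages. It was at 46.8, 36.3 and 56.0 CPM in untreated d6 tumors, at 24.1, 20.5, 33.4, 33.4 and 26.8 CPM at d10, and at 44.8, 46.6 and 48.8 CPM at d14. Its treated tumors held 29.7, 23.7 and 30.8 CPM at d10 and 30.0, 31.2 and 37.8 CPM at d14. The highest tumor was only 2.73 times the lowest, against 16.5 to 94.5 times for the other 8 members. The treated d10 tumors lay inside the range of the untreated d10 tumors. In untreated d14 replicate 2 Pax5 was at 46.6 CPM where the other 8 summed to 3.73 CPM. In untreated d10 replicate 4 it was at 33.4 CPM where they summed to 162.5 CPM. Which cells held the Pax5 RNA was not tested. A pair of genes annotated on the opposite strand, 5730488B01Rik and Gm12462, overlap Pax5 exons, but each had at most 10 counts in any tumor while Pax5 had at least 1324.

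**Figure D1:**
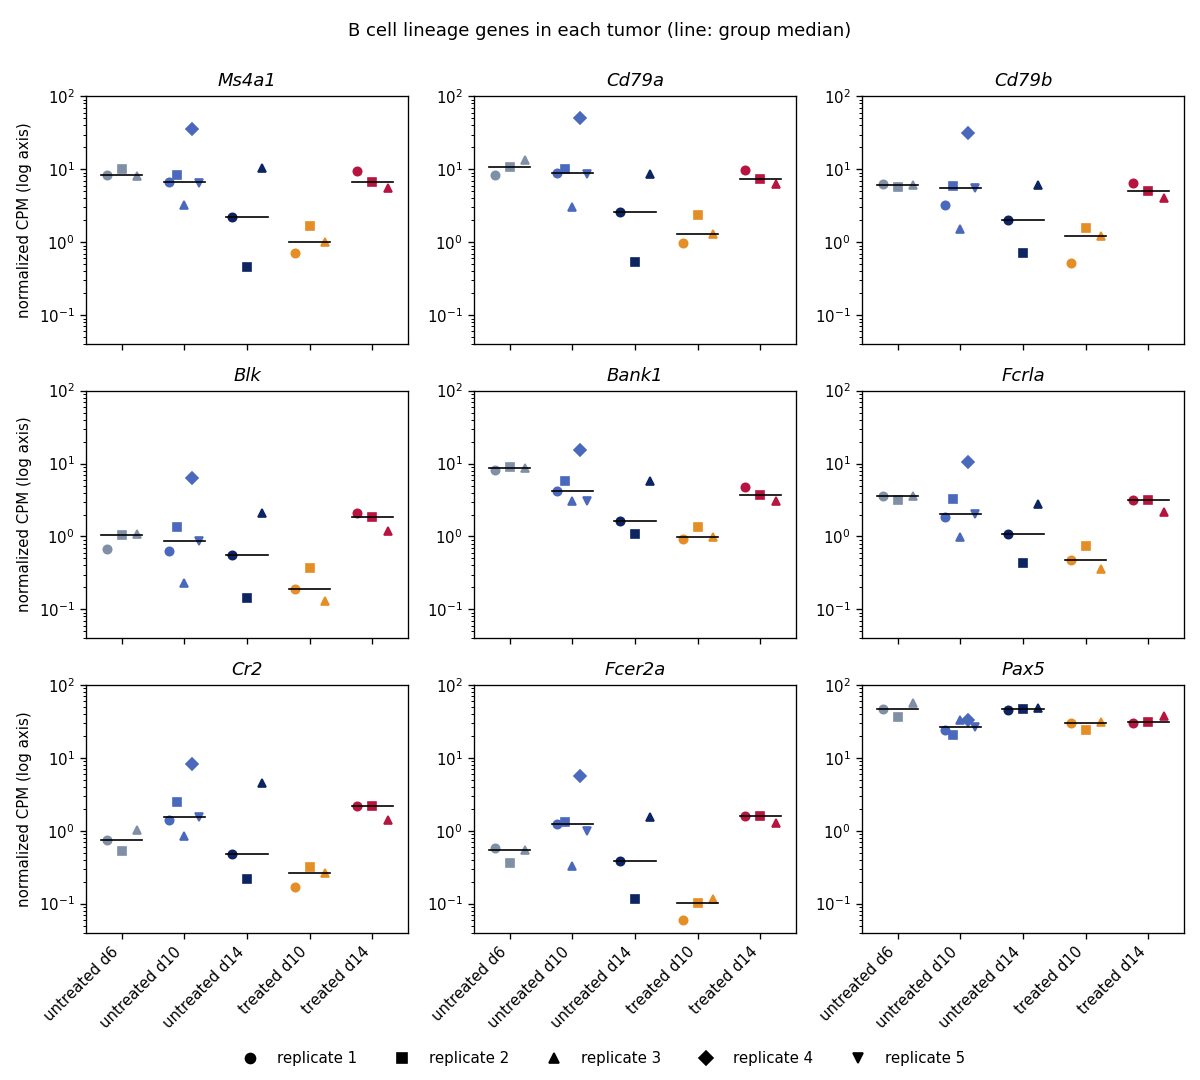
Normalized CPM of the 9 B cell lineage genes in each of the 17 tumors, on log axes with the same limits in every panel. Symbols give the replicate and black lines the group median. In all genes but Pax5 untreated d10 replicate 4 is the highest tumor of all, and the treated d10 tumors sit low, whereas Pax5 stays between 20.5 and 56.0 CPM.

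In the later untreated and both treated groups the highest and the lowest tumor were mostly the same from gene to gene. Without Pax5, untreated d10 replicate 4 was the highest d10 tumor in 8 of 8 genes, at 2.66 to 5.28 times the next tumor, and replicate 3 was the lowest in 7 of 8. In untreated d14 tumors replicate 3 was the highest and replicate 2 the lowest in 8 of 8 genes, with 5.34 to 23.0 times between them. Treated d14 tumors differed by far less, 1.26 to 1.72 times between replicate 1 (highest in 8 of 8) and replicate 3 (lowest in 8 of 8). Among treated d10 tumors replicate 2 was the highest in 7 of 8 genes and replicate 1 the lowest in 6 of 8. There the highest tumor was 1.46 to 2.98 times the lowest. At d6 the highest tumor was 1.10 to 1.97 times the lowest, and each of the 3 tumors was the highest in at least 2 genes. The 8 members without Pax5 summed to between 36.6 and 42.8 CPM in the d6 tumors, 13.3 and 162.5 CPM in untreated d10, 3.73 and 42.0 CPM in untreated d14, 4.05 and 8.50 CPM in treated d10 and 24.9 and 39.5 CPM in treated d14 tumors. Replicates 4 and 5 of the untreated d10 group also differed from replicates 1 to 3 over the table at large, where 1366 of 17321 tested genes (7.89%) were called, and 1 member was among them.

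Differences between groups were tested with edgeR's quasi-likelihood test across all genes that passed a filter on low counts, and a gene was called when its Benjamini-Hochberg adjusted p was under 0.05 and its log2 fold change over 1 in size. All 9 members passed the filter in every comparison. The p-values measure the spread between these tumors, each from its own mouse.

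**Figure D2:**
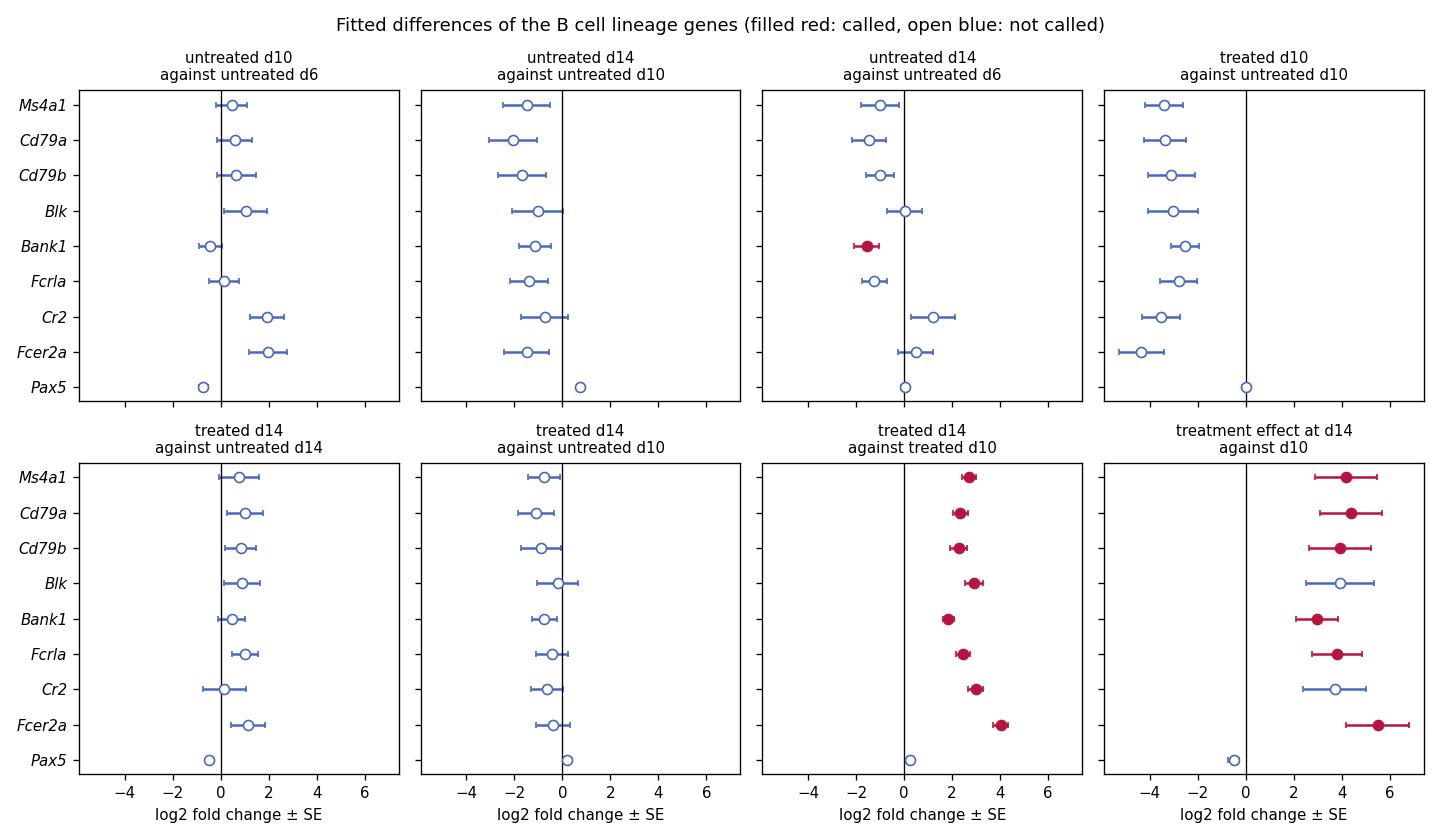
Log2 fold change (point) and its standard error (bar) of each B cell lineage gene in 8 comparisons, from edgeR's quasi-likelihood fit, with called genes filled. The 8 genes other than Pax5 are all called higher in treated d14 against treated d10 tumors, and lie between 2.53 and 4.35 log2 units below 0 in treated against untreated d10 tumors without being called.

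Between treated d10 and treated d14 tumors, 8 of the 9 members rose and passed the test, against 11.5% of all genes called and 9.00% called higher in this comparison. The rise was largest for Fcer2a (log2 fold change 4.02, SE 0.30, edgeR quasi-likelihood adjusted p = 0.00028) and smallest for Bank1 (1.84, SE 0.23, adjusted p = 0.00067). Cr2 (2.98, SE 0.31), Blk (2.93, SE 0.38), Ms4a1 (2.71, SE 0.31), Fcrla (2.44, SE 0.29), Cd79a (2.34, SE 0.31) and Cd79b (2.27, SE 0.35) lay between, with adjusted p from 0.000386 to 0.00139. Over the 9 members the median log2 fold change was 2.44, and over all 17791 genes tested it was 0.04. In 8 of 8 of these genes every treated d14 tumor was above every treated d10 tumor, as were 29.1% of all genes. Pax5 did not pass the test (0.25, SE 0.11, adjusted p = 0.0924). With treated d14 replicate 2 as the only treated d14 tumor, which carried little pancreas RNA, the same 8 genes had log2 fold changes of 1.78 to 4.10. With all 5 groups in 1 fit, 6 were called, and Cd79a and Cd79b were not. In that fit 8.54% of all genes were called, and 6.45% were called higher.

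The question of what CTLA-4 blockade did at d10 was put to treated against untreated d10 tumors. No member was called by edgeR's quasi-likelihood test, in a comparison where 3 of 17258 genes (0.0174%) were called and 2329 had an unadjusted p under 0.05. The estimates of 8 members were nevertheless large, with log2 fold changes of -2.53 (Bank1, SE 0.58) to -4.35 (Fcer2a, SE 0.95), unadjusted p of 0.00103 to 0.0148 and adjusted p of 0.18 to 0.295. The median over the 9 members was -3.10 and over all genes tested -0.01, while Pax5 was at 0.02 (SE 0.18, adjusted p = 0.971). In 6 of the 9, Ms4a1, Cd79a, Fcrla, Cr2, Fcer2a and Bank1, all treated tumors were below all untreated ones, as were 4.59% of all genes. Cd79b and Blk overlapped through untreated d10 replicate 3. DESeq2 called 6 of them lower, the same 6, and 1.29% of all genes (0.962% lower). Against untreated d10 replicates 1 to 3, without the high replicate 4, 7 were called lower (all but Blk and Pax5, log2 fold changes over the 8 genes of -1.68 to -3.38), as were 6.79% of all genes (4.85% lower). Against replicates 4 and 5 alone 4 were called (Ms4a1, Cd79a, Cr2 and Fcer2a), with 0.561% of all genes. Leaving out replicate 4 alone gave -1.75 to -3.39, with adjusted p of 0.0579 to 0.195.

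At d14 no member was called between treated and untreated tumors, although 11.5% of all genes were. Log2 fold changes of the 8 genes ran from 0.15 (Cr2, SE 0.91) to 1.13 (Fcer2a, SE 0.70), with edgeR quasi-likelihood adjusted p of 0.193 to 0.911. Unadjusted p was under 0.05 in none of these 8, and DESeq2 called none of the 7 for which it gave an adjusted p. The outcome rested on untreated d14 replicate 3, the high tumor, since without it all 8 were called higher, at 1.55 to 2.61 with adjusted p of 0.00477 to 0.0189, and so were 11.8% of all genes. Pax5 went the other way, with every treated d14 tumor below every untreated one (27.7% of all genes) and a log2 fold change of -0.47 (SE 0.09, adjusted p = 0.0106), which was under the size limit for a call.

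The difference between these treatment effects was tested by an interaction term, the effect at d14 minus the effect at d10. It was positive for the 8 genes and called for 6, against 11.8% of all genes called and 9.67% called higher: Fcer2a (5.50, SE 1.32, edgeR quasi-likelihood adjusted p = 0.013), Cd79a (4.38, SE 1.28, adjusted p = 0.0307), Ms4a1 (4.17, SE 1.28, adjusted p = 0.0377), Cd79b (3.93, SE 1.29, adjusted p = 0.049), Fcrla (3.82, SE 1.05, adjusted p = 0.0233) and Bank1 (2.98, SE 0.88, adjusted p = 0.0324). Blk (3.94, SE 1.42, adjusted p = 0.0696) and Cr2 (3.70, SE 1.33, adjusted p = 0.069) missed the threshold, and Pax5 was at -0.50 (SE 0.23, adjusted p = 0.142). The median was 3.93 over the 9 members and -0.02 over all 18574 genes tested. Single tumors moved the count. It fell to 1 or 2 without untreated d14 replicate 1 or 2, or without treated d14 replicate 1 or 2. The same happened when any 1 of treated d10 replicates 1 to 3 was left out. In those fits 6.91% to 9.07% of all genes were called. The count rose to 8 without untreated d10 replicate 3 (13.0% of all genes) or untreated d14 replicate 3 (12.4%). With treated d14 replicate 2 as the only treated d14 tumor the estimates were 2.90 to 5.56 over the 8 genes. That fit cannot tell whether the calls hold, since 1 tumor shows no spread of its group. Fcer2a was called in each of the 14 fits that left out 1 tumor.

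Treated d14 tumors were also set against untreated d10 tumors. No member was called, against 7.83% of all genes, and the 8 genes ran from -0.20 (Blk, SE 0.85) to -1.10 (Cd79a, SE 0.75), with edgeR quasi-likelihood adjusted p of 0.296 to 0.885, no unadjusted p under 0.05 and no call by DESeq2. The groups overlapped for all 9 members. Without untreated d10 replicate 4 the estimates ran from -0.10 to 1.11. These 5 comparisons share tumors with one another, so their values for a gene are not independent.

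In untreated tumors the course over time was asked next. From d6 to d10 no member was called, against 7.45% of all genes. Fcer2a (1.96, SE 0.80, edgeR quasi-likelihood adjusted p = 0.119) and Cr2 (1.93, SE 0.72, adjusted p = 0.0945) had the largest estimates, both with an unadjusted p under 0.05. DESeq2 called both higher, as it did 5.18% of all genes. Blk (1.04, SE 0.89), Cd79b (0.66, SE 0.80), Cd79a (0.59, SE 0.73), Ms4a1 (0.47, SE 0.65), Fcrla (0.14, SE 0.63) and Bank1 (-0.43, SE 0.49) had adjusted p of 0.451 to 0.905. Without untreated d10 replicate 4 Ms4a1, Cd79a, Cd79b, Fcrla and Blk turned to -0.25 to -0.72. In that fit Bank1 was called lower, as were 2.82% of all genes. Without replicate 3 Cr2 and Fcer2a were called higher, as were 5.22% of all genes. Pax5 was lower at d10 in every tumor (14.4% of all genes), at -0.72 (SE 0.19, adjusted p = 0.0293), below the size limit for a call.

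From d10 to d14 no member was called, against 7.23% of all genes. The 8 genes had log2 fold changes of -0.74 (Cr2) to -2.06 (Cd79a) with edgeR quasi-likelihood adjusted p of 0.167 to 0.615, no unadjusted p was under 0.05 among them, and DESeq2 called none. Without untreated d10 replicate 4 they ran from -0.99 to 0.28, and without untreated d14 replicate 3 from -2.20 to -3.37, again uncalled. Pax5 was higher in every d14 tumor (15.1% of all genes), at 0.75 (SE 0.17, adjusted p = 0.0157). Between d6 and d14, where 19.0% of all genes were called, 1 member passed: Bank1 was lower at d14, as were 8.81% of all genes (-1.57, SE 0.52, edgeR quasi-likelihood adjusted p = 0.0306). Its call was lost when any of the 3 d6 tumors or untreated d14 replicate 1 was left out, with adjusted p of 0.0654 to 0.0885. Fcrla (-1.24, SE 0.52, adjusted p = 0.0721) was lower in every d14 tumor but not called, and the 2 genes without overlap compare with 31.6% of all genes lower without overlap. Without untreated d14 replicate 3, Ms4a1, Cd79a, Cd79b, Fcrla and Bank1 were called lower at d14, with 9.43% of all genes.

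The members also changed in proportion to each other, which was looked at after their values were seen and is given as a description. Relative to Ms4a1 counts, Cr2 counts made up 5.15% to 12.8% at d6, 21.4% to 29.9% in untreated d10, 21.8% to 48.6% in untreated d14, 19.5% to 25.7% in treated d10 and 23.5% to 32.6% in treated d14 tumors. All 14 later tumors were thus above the 3 d6 tumors. Fcer2a counts made up 3.56% to 6.99% of Ms4a1 counts at d6, 9.88% to 18.8% in untreated d10 and 14.8% to 25.7% in untreated d14 tumors. They made up 6.20% to 11.4% in treated d10 and 17.1% to 23.5% in treated d14 tumors, with no overlap between those groups, although the treated d10 shares rest on at most 8 Fcer2a counts. Bank1 went from 88.9% to 108% of Ms4a1 counts at d6 to 50.8% to 55.0% in treated d14 tumors, and was at 242.9% in untreated d14 replicate 2, where Ms4a1 had only 35 counts. Cd79a stayed between 83.1% and 167.7% of Ms4a1 in all tumors.

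**Figure D3:**
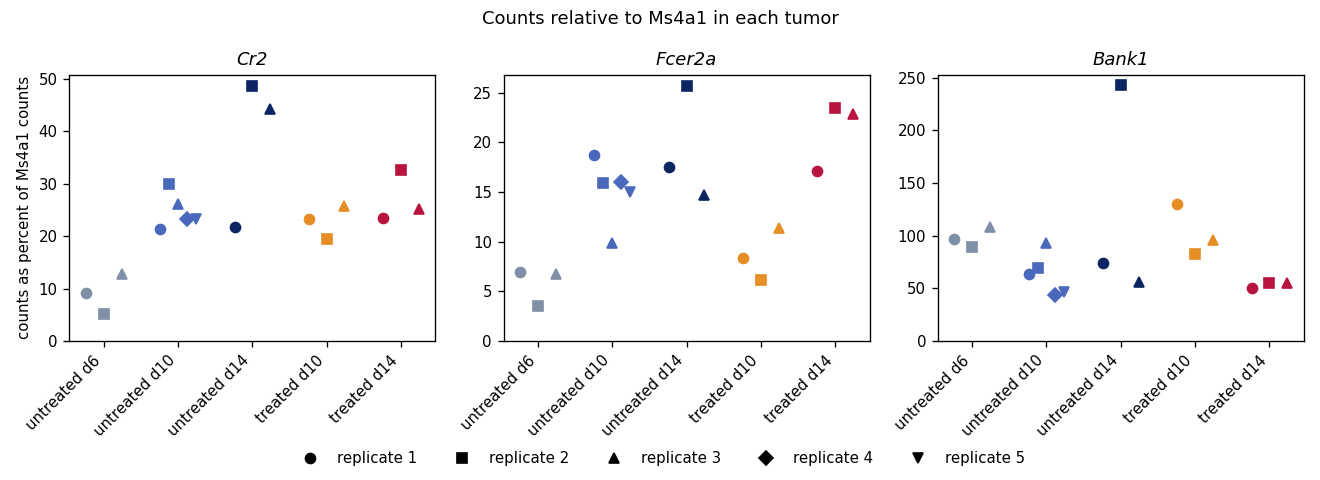
Counts of Cr2, Fcer2a and Bank1 as a percentage of Ms4a1 counts in each tumor, on linear axes that start at 0, with symbols for the replicate. The 3 d6 tumors hold the lowest Cr2 shares, 5.15% to 12.8%, and all others lie between 19.5% and 48.6%.

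Across the 17 tumors, pairs of the 8 genes without Pax5 had Spearman's rho between 0.65 and 0.94, with a median of 0.86 over 28 pairs. Cd79b with Fcrla and Cr2 with Fcer2a reached 0.94 each, and Fcer2a with Bank1 was the lowest at 0.65. The 8 pairs that include Pax5 lay between -0.06 (with Cr2) and 0.34 (with Bank1). These values describe 17 tumors that share groups and single high tumors, and carry no p.

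**Figure D4:**
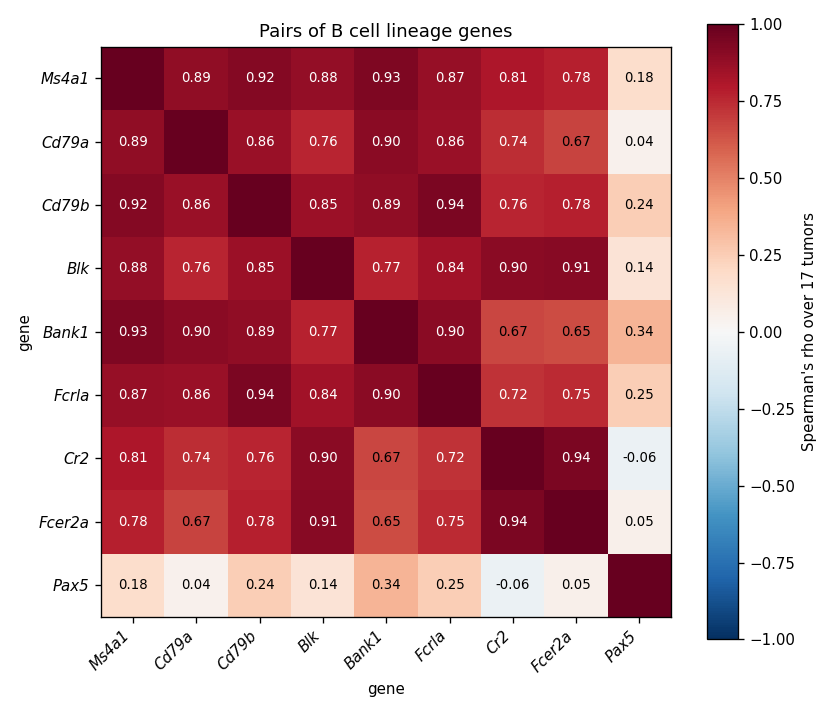
Spearman's rho between normalized log2 CPM of each pair of B cell lineage genes over 17 tumors, on a color scale from -1 to 1. The Pax5 row and column lie between -0.06 and 0.34 and all other pairs between 0.65 and 0.94.

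Among 18843 genes, those whose pattern was most like the mean standardized log2 CPM of the 9 members were mostly B cell genes. Cxcr5, the receptor for Cxcl13, came closest with Spearman's rho 0.98 over 17 tumors, followed by Tnfrsf13c (0.95), the BAFF receptor, Siglecg (0.95), an inhibitory lectin of B cells, Fcrl1 (0.94), Btla (0.93), an inhibitory receptor of lymphocytes, Bcl11a (0.93), Aff3 (0.93), Spib (0.91), an ETS factor, and Upk3b (0.90), a mesothelial gene. With Pax5 left out of the mean, 7 of the 10 closest genes stayed, but Btla, Bcl11a and Upk3b did not. Ppfia4 (0.94), Irs3 (0.90) and Ccr6 (0.89) took their places. Pax5 had another set of most similar genes, led by Elf1 (0.91), Rapgef5 (0.90), Nsmaf (0.90), Ifi206 (0.88) and Rnf213 (0.88).

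Other genes of the B lineage were followed as fixed lists. All 20 further B cell genes had positive estimates in treated d14 against treated d10 tumors (median of the list 1.81 log2 units). While 9.00% of all genes were called higher, 13 of this list were and none was called lower. By mean level over all tumors the leading 3 of these were Pou2af1 (2.90, SE 0.27), a B cell transcriptional coactivator, Spib (1.78, SE 0.24) and Bach2 (1.06, SE 0.14), a repressor that opposes plasma cell differentiation, all with edgeR quasi-likelihood adjusted p of 0.000852 or less. All 10 immunoglobulin constant genes rose as well, at a median of 3.34, led in level by Ighm (2.81, SE 0.44, adjusted p = 0.00139), Igkc (2.87, SE 0.25, adjusted p = 0.000328) and Ighg1 (4.45, SE 0.71, adjusted p = 0.00157). With treated d14 replicate 2 as the only treated d14 tumor, 11 of these 13 further B cell genes and 8 of these 10 immunoglobulin genes were still called, without Vpreb3, Chst3, Iglc2 and Igha. Reads of immunoglobulin genes can be split between near-identical copies, and BALB/c alleles differ from the reference, so their single values are uncertain.

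Of 8 plasma cell genes 4 were called higher in treated d14 than in treated d10 tumors. They were Jchain (2.61, SE 0.32), the joining chain of secreted antibody, Derl3 (2.68, SE 0.33), Mzb1 (2.08, SE 0.39) and Tnfrsf17 (1.91, SE 0.60). Their edgeR quasi-likelihood adjusted p was 0.000605 to 0.0272. Tnfrsf17 was not called with treated d14 replicate 2 alone (1.76). Of the germinal center genes Gcsam rose (1.35, SE 0.18), and the median over the 6 tested was 0.25. None of the 12 B cell receptor signaling genes, many of which are shared with myeloid or T cells, and none of 4 B-1 cell genes passed. Of the 6 genes of B cell precursors only Dntt was tested in this comparison and it was not called. Rag2 had at most 2 and Vpreb2 no counts in any tumor. Among 11 tested genes of B cell attraction and survival, Cxcl13 (1.91, SE 0.18, adjusted p = 0.000328) and Ccr6 (2.56, SE 0.35, adjusted p = 0.000839) rose.

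In treated against untreated d10 tumors, where 0.0174% of all genes were called, none of these lists had a called gene. Medians were -2.10 for the further B cell genes and -2.23 for the immunoglobulin genes. They were -0.83 for plasma cell genes, -0.04 for germinal center genes and -0.12 for receptor signaling. In the interaction, where 9.67% of all genes were called higher, 8 of 20 further B cell genes and 6 of 10 immunoglobulin genes were called. So were 5 of 8 plasma cell genes and 9 of 12 receptor signaling genes. All these calls were positive. With treated d14 replicate 2 as the only treated d14 tumor the medians of these 4 lists were 2.84, 3.93, 2.05 and 1.33. With all treated d14 tumors they were 2.72, 4.46, 2.12 and 1.28. A fit with 1 treated d14 tumor cannot tell whether the calls hold. From untreated d6 to d14 tumors, Ighm (-2.42, SE 0.36, edgeR quasi-likelihood adjusted p = 0.000732) and Igkc (-2.50, SE 0.43, adjusted p = 0.00138) fell, as did Iglc1, Iglc2 and Igha, whereas Ighg1 (3.90, SE 1.15, adjusted p = 0.0198) and Ighg2c (4.31, SE 1.11, adjusted p = 0.0104) rose. Jchain fell by 2.24 (SE 0.31, adjusted p = 0.00046) over the same interval. From untreated d6 to d10 tumors 1 of 20 further B cell genes was called higher, near the 4.79% of all genes called higher. It was Cd22, an inhibitory B cell receptor (1.50, SE 0.30, edgeR quasi-likelihood adjusted p = 0.00849). Cd22 was still at 12.6 to 17.7 CPM in treated d10 tumors.

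**Figure D5:**
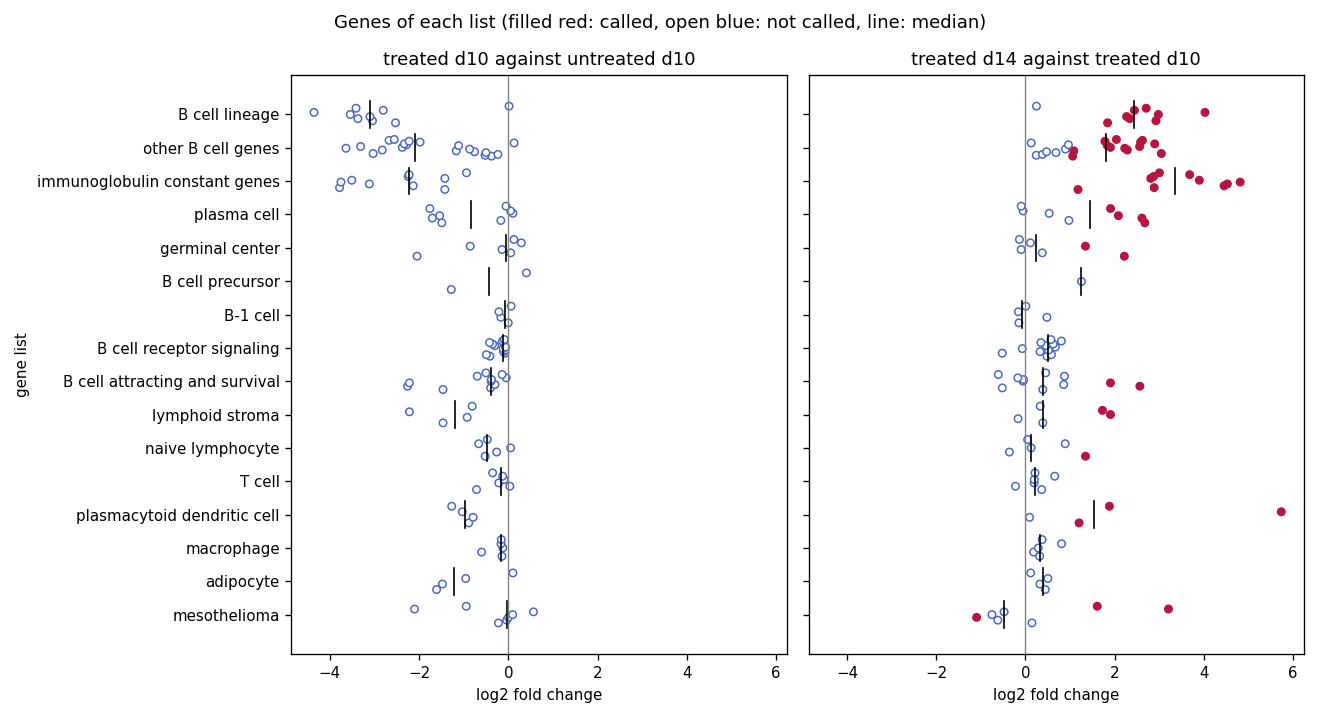
Log2 fold changes of the genes of 16 lists in treated against untreated d10 tumors (left) and in treated d14 against treated d10 tumors (right), with called genes filled and a black line at the median of each list. The pancreas list lies beyond the axis and is not drawn. On the right the 8 B cell lineage genes, 13 further B cell genes and 10 immunoglobulin genes are filled, and on the left no gene is.

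Markers of other cells moved with the members in part. Summed levels of 6 T cell genes were 55.5 to 60.1 CPM at d6, 176.4 to 229.2 in untreated d10, 69.7 to 125 in untreated d14, 160.5 to 188.7 in treated d10 and 183.9 to 208.0 CPM in treated d14 tumors, and none of the 6 was called between treated d10 and d14. Of 5 naive lymphocyte genes Ccr7 rose in that comparison (1.35, SE 0.17, edgeR quasi-likelihood adjusted p = 0.000641). Of 6 lymphoid stroma genes, with a median sum of 9.10 CPM in treated d10 and 30.3 CPM in treated d14 tumors, Cxcl13 and Glycam1 (1.73, SE 0.44, adjusted p = 0.0121, but not called with replicate 2 alone) rose, and the sum was highest, at 96.5 CPM, in untreated d10 replicate 4. Plasmacytoid dendritic cells share Spib and Bcl11a with B cells, and of their 4 marker genes Siglech (1.88, SE 0.24), Ccr9 (1.20, SE 0.21) and Klk1 (5.73, SE 1.09) rose. The sum of these 4 genes was 90.4, 11.3 and 34.8 CPM in treated d14 replicates 1, 2 and 3, in the order of their pancreas RNA, and with replicate 2 alone the same 3 genes were called at 2.25 (Siglech), 1.33 (Ccr9) and 1.70 (Klk1). Macrophage and adipocyte genes were not called between treated d10 and d14 tumors, although with replicate 2 alone 1 macrophage gene, Csf1r, and 3 adipocyte genes (1.12 to 1.18) were called higher. Among mesothelioma markers Wt1 (1.61, SE 0.20) and Upk3b (3.21, SE 0.30) rose and Krt19 fell by 1.09 (SE 0.12), with adjusted p of 0.000622 or less. Of 6 pancreas genes all 5 tested rose. The part of these cells in the values of the B cell lineage genes was not tested. In treated d14 replicate 2, with almost no pancreas RNA, the 8 members without Pax5 summed to 31.6 CPM, between replicates 1 (39.5 CPM) and 3 (24.9 CPM).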

How the data were processed

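Bulk RNA-seq of 17 peritoneal AB12 tumors was analysed. Per the labels and the study's methods, libraries (KAPA RNA HyperPrep) were sequenced on NextSeq500 or NovaSeq6000 instruments, without a record of which library ran where, aligned by TopHat2 2.0.14 to GRCm38, and uniquely mapped reads were counted per gene with HTSeq on Gencode vM21. The strand setting was not given in the sources used here. The deposited values are raw counts, with no normalization by the authors. All 55450 identifiers matched the annotation, and 20211 had no count.

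Counts were tested in edgeR 4.0.16 (R 4.3.3) by quasi-likelihood fits on the groups compared, with filterByExpr and TMM scaling, and SE was taken as the log2 fold change over the square root of F. DESeq2 1.42.0 was an alternative, as were other filters, gene sets, sample choices and each tumor left out. Normalized CPM used TMM sizes over 17 libraries, and RPKM the union exon length. No replicate pair looked like 1 library deposited again (chi-square per gene of 18.5 to 268 over 22 pairs). The fits were tested on simulated data. The members and lists were chosen with earlier results of these data known. Named genes were the 9 members, every called gene of a list with up to 5 calls or else the 3 most abundant, and the 10 genes most like the members. Some genes that met this rule are not reported here.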

Additional observations from a re-analysis of the deposited data

Results flagged for a closer look

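Untreated d10 replicate 4 stood apart from the other 4 untreated d10 tumors in 8 of the 9 genes. Its normalized CPM was 35.4 for Ms4a1, 50.0 for Cd79a, 31.1 for Cd79b, 10.4 for Fcrla, 6.39 for Blk, 8.25 for Cr2, 5.65 for Fcer2a and 15.4 for Bank1. In each the gap to the next tumor, as a share of the range of the group, was above Dixon's 95% critical value of 0.71 for 5 tumors. The check used CPM without a log transform, which gives a high tumor more weight. Chance marks about 1 in 20 groups at this level only where values are normally distributed, which was not tested here. The 8 genes also share the same tumor. Pax5 was not marked, at 33.4 CPM. Sums of most other lists were also highest among untreated d10 tumors in this replicate. They included the immunoglobulin, lymphoid stroma, T cell (229.2 CPM) and adipocyte (13.4 CPM) lists. The macrophage, mesothelioma, pancreas and B cell precursor lists were not highest there. Only the untreated d10 group had enough tumors for this check.

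The effect of anti CTLA-4 differed between d14 and d10 by the interaction term for 6 genes, with 11.8% of all genes called. The log2 difference, d14 minus d10, was 4.17 for Ms4a1, 4.38 for Cd79a, 3.93 for Cd79b, 3.82 for Fcrla, 5.50 for Fcer2a and 2.98 for Bank1. These calls were made with edgeR's quasi-likelihood test and, apart from Fcer2a, were lost in many of the fits that left out 1 tumor.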

How the results depend on the processing

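The 8 calls in treated d14 against treated d10 tumors held in every fit that left out 1 tumor (8 to 8) and under DESeq2, no TMM scaling, protein-coding genes only and a filter of at least 1 count, with 6 of 7 tested genes called at a minimum of 10 counts. From d6 to d10 in untreated tumors 0 calls became 2 with DESeq2 and 1 with the replicate block. With untreated d10 replicates 4 and 5 only they became 4 (0 to 2 leaving out tumors). The share of all genes called went from 7.45% to 8.22%, 8.29% and 16.7% in these fits (4.66% to 8.20% leaving out tumors). From d6 to d14, 1 call became 2 with DESeq2, 3 with all genes of at least 1 count and 4 with the block (0 to 5). The share of all genes called went from 19.0% to 17.7%, 13.6% and 19.0% in these fits. Leaving out tumors, 3117 to 3437 genes of the whole table were called. In treated against untreated d10 tumors 0 became 6 with DESeq2, 1 with all genes of at least 1 count and 1 with all 5 groups fitted. The count became 8 with the block, 7 with replicates 1 to 3 and 4 with replicates 4 and 5 (0 to 0). The share of all genes called went from 0.0174% to 1.29%, 0.127% and 0.409% in the first 3 of these fits. It was 7.01% with the block, 6.79% with replicates 1 to 3 and 0.561% with replicates 4 and 5. For treated against untreated d14 tumors leaving out tumors gave 0 to 8, with 6.32% to 15.2% of all genes called. For treated d14 against untreated d10 tumors 0 became 1 with the block and 2 with replicates 4 and 5. The share of all genes called went from 7.83% to 13.1% and 11.9% in these fits. The interaction gave 6 calls, and 1 to 8 leaving out tumors. With treated d14 replicate 2 only, an alternative chosen after seeing the data, the 8 members without Pax5 were at 2.90 to 5.56. Replicate numbers did not pair the tumors (correlation of deviations -0.28 to 0.14), so the block values are given here only. Where fits left out tumors down to 1 in a group, that tumor was assumed to vary like the others.

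Directions turned in genes that were not called. From d6 to d10 the block gave Ms4a1 -0.60, Cd79a -0.63, Cd79b -0.93, Fcrla -0.86 and Blk -0.50, replicates 1 to 3 gave Ms4a1 -0.51, Cd79a -0.53, Cd79b -0.75, Fcrla -0.73 and Blk -0.32, and replicates 4 and 5 gave Bank1 0.11. From d10 to d14 replicates 1 to 3 gave Blk 0.36 and Cr2 0.15. From d6 to d14 the block gave Blk -0.49 and Fcer2a -0.023. In treated against untreated d10 tumors Pax5 was at -0.11 with replicates 4 and 5 and at -0.01 without TMM. For treated d14 against untreated d10 the block gave Ms4a1 0.28, Cd79a 0.16, Cd79b 0.67, Fcrla 0.57, Blk 1.35, Cr2 0.33 and Fcer2a 0.71, and replicates 1 to 3 gave Ms4a1 0.22, Cd79a 0.042, Cd79b 0.52, Fcrla 0.46, Blk 1.18, Cr2 0.24 and Fcer2a 0.59. Leaving out 1 tumor at a time, the ranges that crossed 0 were, from d6 to d10, Ms4a1 -0.48 to 0.70, Cd79a -0.47 to 0.86, Cd79b -0.56 to 0.93, Fcrla -0.72 to 0.37 and Blk -0.25 to 1.32, from d10 to d14, Blk -2.43 to 0.28 and Cr2 -3.05 to 0.15, and from d6 to d14, Blk -1.37 to 0.53, Pax5 -0.13 to 0.18, Cr2 -1.10 to 1.73 and Fcer2a -0.93 to 0.98. For treated against untreated tumors they were Pax5 -0.067 to 0.129 at d10 and Cr2 -0.37 to 2.52 at d14. For treated d14 against untreated d10 they were Ms4a1 -1.02 to 0.18, Cd79b -1.18 to 0.32, Fcrla -0.66 to 0.44, Blk -0.47 to 1.11, Cr2 -0.86 to 0.25 and Fcer2a -0.67 to 0.57. The cause of these turns was not tested. Over all alternatives the number of genes called in the whole table went from 3 to between 0 and 1210 in treated against untreated d10 tumors and from 2072 to between 2 and 2851 in treated against untreated d14 tumors, where 2 is the count with treated d14 replicate 2 only.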

Other observations

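Some markers of macrophages and T cells were called higher in treated than in untreated tumors at d14, where none of the 9 members was. Of all genes 9.07% were called higher there. Other B lineage genes were also called higher: 6 of 10 immunoglobulin genes, 3 of 8 plasma cell genes and 1 of 7 germinal center genes. So were 5 of 12 receptor signaling genes and, of 20 further B cell genes, Pou2af1. In treated against untreated d14 tumors all 5 macrophage genes were called higher by edgeR's quasi-likelihood test, at log2 fold changes of 1.02 (Adgre1) to 1.50 (Csf1r), and of 6 T cell genes Cd2 (1.29, SE 0.23) and Cd6 (1.45, SE 0.22) were. With all treated d14 tumors the interaction was called for all 5 macrophage genes and for Cd3e, Cd2, Cd6 and Trac. With treated d14 replicate 2 as the only treated d14 tumor, where 2 genes of the whole table were called at d14, none of these macrophage and T cell genes was called at d14, and the macrophage genes were at 1.04 to 1.70 with adjusted p of 0.105 to 0.138. In the same setting the interaction was called for Csf1r, C1qa, Cd3e, Cd3g, Cd2 and Cd6. No gene of either list was called in treated against untreated d10 tumors. The Pax5 level went with another set of genes: besides those already named, Ifi208 (Spearman's rho 0.87), Trim34a (0.87), Tnfsf10 (0.87), Gbp9 (0.86) and Sp110 (0.86) were among the 10 most alike over 17 tumors, several of which are interferon-induced genes. These values are a description and carry no p.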
